A study of Mus musculus with 4 samples.

Results

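Expression of 8 Wnt ligand genes (Wnt2, Wnt4, Wnt5a, Wnt5b, Wnt9a, Wnt10b, Wnt11 and Wnt16) and 2 R-spondin genes (Rspo2 and Rspo3) was followed in cultured hair follicle mesenchymal cells. These 10 genes were picked by symbol from the 51826 genes of the deposited table of raw counts, and each symbol matched 1 gene. Dermal papilla cells (DPCs) come from the papilla of the hair bulb and dermal sheath cells (DSCs) from the connective tissue sheath around the follicle. Both were grown from whisker follicles of C57BL/6J mice aged 5 to 6 weeks. The labels give the genotype as WT, while the study's methods describe EGFP-transgenic animals, and this holds for every group. The 4 groups were DPCs at passage 3 (P3, low passage), DPCs at passage 9 (P9, high passage), and DSCs at the same passages, with 1 library in each. No sample was treated, and the cells were expanded on plastic away from the epithelium they face in the follicle. With 1 library in a group there was no replicate error, so no test between groups was made and every difference below compares 2 libraries.

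Wnt ligands are secreted, lipid-modified glycoproteins that bind Frizzled receptors. Some of them act mainly by stabilising the transcriptional coactivator β-catenin, and others mainly through β-catenin-independent routes that control cell polarity, movement and calcium. R-spondins bind the receptors LGR4, LGR5 and LGR6 and keep the ubiquitin ligases ZNRF3 and RNF43 from removing Frizzled from the cell surface, which makes a cell more sensitive to Wnt. In the hair follicle, Wnt activity in the papilla and the neighbouring epithelium is needed for hair formation, and the follicle mesenchyme is a known source of R-spondins and of Wnt5a.

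The libraries held between 34981284 and 47604059 counts, with a count for 22230 to 23548 genes. The fibroblast markers Col1a1, Col1a2, Pdgfrb and Vim were abundant in each library. Others on that list varied, with Lum at 8, 0, 0 and 109 counts in P3 DPCs, P9 DPCs, P3 DSCs and P9 DSCs. Col3a1 had 45727, 5565, 26269 and 41082 counts in that order. The sheath markers Acta2 and Tagln were abundant in DPCs as well as in DSCs, while the sheath marker Myh11 had 2882, 168, 1063 and 3160 counts. Of 10 papilla markers, 8 to 10 had more than 3 counts in a library, but Alpl, the papilla's alkaline phosphatase, had only 6 to 23 counts and Corin 0 to 10. The papilla markers did not set DPCs apart from DSCs as a list. Of 7 tested, 4 were lower in DPCs at each passage, with median log2 fold changes of DPCs over DSCs of -0.31 at P3 and -0.14 at P9, and their summed level (all 10) was 880, 592, 500.4 and 861 CPM (counts per a fixed number of scaled library counts) in P3 DPCs, P9 DPCs, P3 DSCs and P9 DSCs. Sox2 was higher in DPCs (1677 and 1491 counts at P3 and P9) than in DSCs (269 and 178), while Ncam1 was lower (3642 and 1673 against 11755 and 15584). The 8 fibroblast markers summed to 18570 and 7373 CPM in P3 and P9 DPCs and to 27060 and 23960 in DSCs. The 6 sheath markers summed to 9787 and 3712 CPM in DPCs and to 8051 and 7052 in DSCs. Of 8 keratinocyte markers, 2 or 3 had more than 3 counts in a library, among them Krt10 (33 to 61 counts) and Trp63 (10 to 35), while Krt5, Krt14, Krt15, Krt1 and Cdh1 had 0 in all 4 libraries. Summed Schwann cell markers were at 6.77 CPM in P3 DPCs, 5.38 in P9 DPCs, 17.4 in P3 DSCs and 7.77 in P9 DSCs, and the Schwann gene Cdh19 was at 0 counts in both P9 libraries. In bulk RNA, fewer cells of a type and less RNA per cell cannot be told apart.

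The ligand genes are spread over the mouse genome. All 10 are protein coding, and the deposited tables, read as build GRCm38, place Wnt5a on chromosome 14 from 28504750 to 28527447, Wnt4 on chromosome 4 from 137277489 to 137299726 and Wnt9a on chromosome 11 from 59306928 to 59333552. Chromosome 6 carries Wnt2 (17988940 to 18030585), Wnt16 (22288227 to 22298522) and Wnt5b (119432531 to 119544347). Wnt11 lies on chromosome 7 from 98835112 to 98855195 and Rspo3 on chromosome 10 from 29452416 to 29535867. Chromosome 15 carries Rspo2 (43020811 to 43170818) and Wnt10b (98771753 to 98778150). The positions of Wnt5a, Wnt10b and Rspo2 differ from those in the GRCm38 annotation used for comparison (GENCODE M21), and the other 7 are identical to it. Exons of Wnt5a overlap those of the antisense gene Gm2670, which had 58, 230, 68 and 111 counts in P3 DPCs, P9 DPCs, P3 DSCs and P9 DSCs. Because the use of strand in counting was not stated, reads of these overlapping genes cannot be told apart, although Gm2670 held far fewer counts than Wnt5a.

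Promoters are shown for Wnt4, Wnt11 and Wnt16, because these ligands differed most in how DPCs and DSCs stood to each other at the 2 passages. Each is a window of 300 bases from RefSeq on build GRCm38.p6, 250 before and 50 after an annotated start, read 5′ to 3′ on the strand of the gene. Capitals mark 4 motifs searched on both strands, namely a TCF/LEF motif (CTTTG with 2 further bases, either adenine or thymine), the TATA box with the letters TATAAA, a motif written CCAAT and the GC box, which reads GGGCGG. In these windows adjoining or overlapping matches run together.
Wnt4, plus strand, chr4:137277385-137277684: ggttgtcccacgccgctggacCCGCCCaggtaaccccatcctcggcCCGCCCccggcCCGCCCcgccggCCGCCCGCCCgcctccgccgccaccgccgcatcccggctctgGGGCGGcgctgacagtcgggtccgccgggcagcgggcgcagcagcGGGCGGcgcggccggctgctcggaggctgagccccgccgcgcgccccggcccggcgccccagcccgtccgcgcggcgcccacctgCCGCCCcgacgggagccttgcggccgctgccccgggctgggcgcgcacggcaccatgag
Wnt11 first start, plus strand, chr7:98834862-98835161: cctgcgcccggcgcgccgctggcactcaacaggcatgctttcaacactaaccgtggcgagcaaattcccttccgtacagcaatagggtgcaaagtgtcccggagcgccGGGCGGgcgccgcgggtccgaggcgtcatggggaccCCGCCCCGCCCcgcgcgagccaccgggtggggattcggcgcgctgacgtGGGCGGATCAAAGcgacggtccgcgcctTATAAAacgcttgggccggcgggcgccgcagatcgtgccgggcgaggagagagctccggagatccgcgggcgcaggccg
Wnt11 second start, plus strand, chr7:98838595-98838894: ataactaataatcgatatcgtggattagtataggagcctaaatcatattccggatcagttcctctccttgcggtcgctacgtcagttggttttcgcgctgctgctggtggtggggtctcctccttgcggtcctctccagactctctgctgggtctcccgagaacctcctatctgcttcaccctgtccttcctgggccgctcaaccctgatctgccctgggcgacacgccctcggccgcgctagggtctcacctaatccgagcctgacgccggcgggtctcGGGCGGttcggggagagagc
Wnt16, plus strand, chr6:22287977-22288276: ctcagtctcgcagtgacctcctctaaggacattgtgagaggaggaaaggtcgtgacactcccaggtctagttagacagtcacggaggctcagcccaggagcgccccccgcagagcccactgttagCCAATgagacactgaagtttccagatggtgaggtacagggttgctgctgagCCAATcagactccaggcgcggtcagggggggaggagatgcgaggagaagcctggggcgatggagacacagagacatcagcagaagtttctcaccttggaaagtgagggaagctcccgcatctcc
The Wnt4 window was 84.3% G or C, with 8 GC boxes and none of the other motifs. The first Wnt11 start held a TATA match beginning 29 bases before the start, a TCF/LEF match (CTTTGAT on the minus strand) beginning 51 bases before it and 4 GC boxes, whereas the second start held a single GC box and none of the others. The Wnt16 window had 2 CCAAT matches and neither a GC box nor a TCF/LEF match. Promoters were found for 7 of the 10 genes, 10 windows in all, and a TCF/LEF match stood in 1 window of Wnt11 and 1 of the 3 windows of Wnt5b. Over all 32851 mouse promoter windows, 16.9% held a TCF/LEF match, 13.6% a TATA match, 37.4% a CCAAT match and 35.7% a GC box. A match is a description of the letters and not evidence of binding.

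Wnt5a was the most abundant ligand in every library. It encodes the main β-catenin-independent ligand of mesenchyme. Wnt5a had 4711 counts in P3 DPCs and 14803 in P9 DPCs, against 4400 in P3 DSCs and 7368 in P9 DSCs. After scaling these were 128 CPM (95% Poisson interval 124 to 132), 413 (406 to 419), 116 (113 to 120) and 162 (158 to 165). The passage 3 libraries were close to each other without overlapping, and P9 DPCs stood well above the other 3 libraries. Wnt5b, its nearest relative, followed at a much lower level, with 43 and 88 counts in P3 and P9 DPCs and 16 and 41 in DSCs. In deposited FPKM, which is scaled by transcript length, Wnt5a exceeded Wnt5b 62.3-fold in P3 DPCs, 98.2-fold in P9 DPCs, 157-fold in P3 DSCs and 97.9-fold in P9 DSCs.

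Wnt11, another ligand known for β-catenin-independent signaling, had its highest level in the P3 DPCs. Its counts were 159 there, 55 in P9 DPCs, 29 in P3 DSCs and 69 in P9 DSCs. Scaled, this was 4.32 CPM (3.68 to 5.05), 1.53 (1.16 to 1.995), 0.765 (0.512 to 1.10) and 1.51 (1.18 to 1.92). The P9 libraries held nearly the same level, and the P3 libraries lay on either side of it.

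Wnt4, which can act by either route and is needed for development of the kidney and female reproductive tract, was lowest in P9 DPCs, near the limit of detection. It had 94 counts in P3 DPCs and 4 in P9 DPCs, against 187 in P3 DSCs and 98 in P9 DSCs. These were 2.55 CPM (2.06 to 3.13), 0.111 (0.0304 to 0.285), 4.93 (4.25 to 5.69) and 2.15 (1.75 to 2.62). The intervals of P3 DPCs and P9 DSCs overlapped, and that of P9 DPCs lay far below the rest. Summed markers of some other cell types were also lower at P9 and lower in DPCs than in DSCs of the same passage. The 6 immune markers summed to 21.3, 9.06, 32.9 and 14.1 CPM in the same order of libraries, with 4 or 5 of them over 3 counts in each. The 5 endothelial markers summed to 0.924, 0.112, 2.64 and 0.395 CPM. The 6 Schwann markers summed to the values given above, with 6, 3, 6 and 4 of them over 3 counts and Sox10 at 28, 0, 116 and 0, but stood higher in P9 DSCs than in P3 DPCs. The muscle gene Acta1 had 1495, 13, 1837 and 1083 counts, while Myod1, Myf5 and Ckm were at 0 in each library. Other lists ran differently, with melanocyte markers at 11.2, 28.3, 12.3 and 12.97 CPM and keratinocyte markers at 2.07, 1.31, 1.79 and 2.04. The part of these cells in the Wnt4 values was not tested.

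Wnt16, a ligand studied mainly in bone, was the second most abundant Wnt gene by FPKM in each library. It had 284 and 487 counts in P3 and P9 DPCs and 275 and 200 in DSCs. The corresponding levels were 7.72 CPM (6.85 to 8.67), 13.6 (12.4 to 14.8), 7.25 (6.42 to 8.16) and 4.39 (3.80 to 5.04). The P3 libraries overlapped, while at high passage DPCs lay above them and DSCs below. Wnt9a, a ligand of joints and limb, was the steadiest of the genes, with 190, 201, 208 and 329 counts in P3 DPCs, P9 DPCs, P3 DSCs and P9 DSCs. Its levels of 5.16, 5.60, 5.49 and 7.22 CPM had overlapping intervals in the first 3 libraries, and the highest, 6.46 to 8.04, began just above the 6.43 that ended the interval of P9 DPCs.

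Wnt2 and Wnt10b were at the limit of detection. Wnt10b, a β-catenin-dependent ligand known from hair follicle formation, had 8 counts in P3 DSCs, 4 in P9 DSCs and 0 in both DPC libraries. Wnt2 had 2 counts in P3 DSCs and 0 elsewhere. A count of 0 allows up to 3 counts, or 0.0815 CPM in P3 DPCs, 0.0836 in P9 DPCs and 0.0658 in P9 DSCs. At this depth no difference between libraries was detectable for Wnt2.

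**Figure D1:**
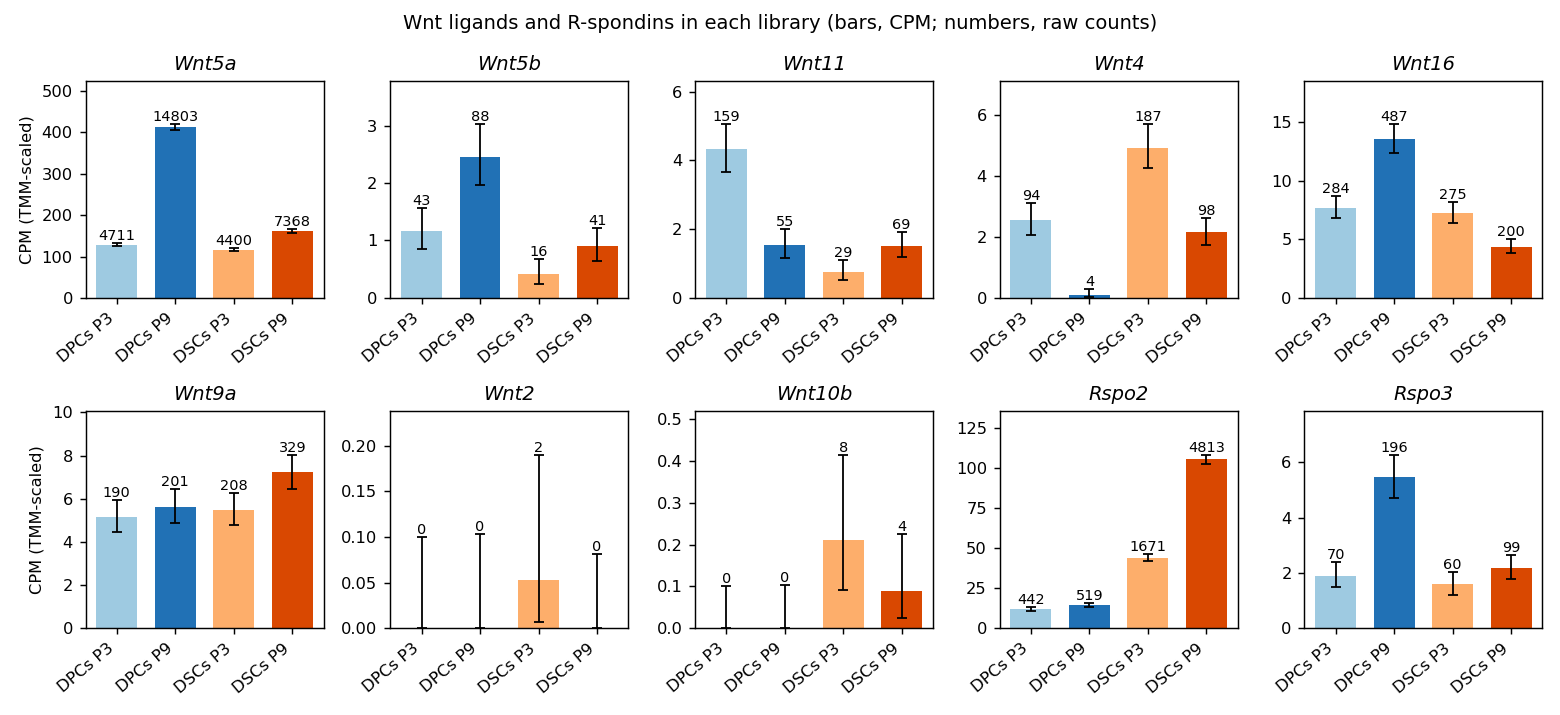
Level of each gene in CPM (counts relative to the TMM-scaled library total, y axis) in the 4 libraries (x axis, P3 and P9 for passages 3 and 9). Bars are single libraries, error bars are 95% Poisson intervals for counting error only, and the number above a bar is its raw count. Wnt5a stands at 413 CPM in P9 DPCs and Rspo2 at 106 in P9 DSCs, each above the other 3 libraries of its panel.

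Rspo2 was the R-spondin gene with the most counts and was higher in DSCs than in DPCs at both passages. It had 442 counts in P3 DPCs and 519 in P9 DPCs, against 1671 in P3 DSCs and 4813 in P9 DSCs. These were 12.01 CPM (10.9 to 13.2), 14.5 (13.2 to 15.8), 44.1 (42.0 to 46.2) and 106 (103 to 109). Neither DSC library overlapped either DPC library. Rspo3 had a different order, with 70 and 196 counts in P3 and P9 DPCs and 60 and 99 in DSCs. Its levels were 1.90 CPM (1.48 to 2.40), 5.46 (4.72 to 6.28), 1.58 (1.21 to 2.04) and 2.17 (1.77 to 2.65), so that P9 DPCs stood apart and the other 3 libraries overlapped. The FPKM of Rspo2 was 5.90 times that of Rspo3 in P3 DPCs, 2.47 times in P9 DPCs, 26.0 times in P3 DSCs and 45.3 times in P9 DSCs.

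Summed over all 19 Wnt genes in the table, FPKM was 38.6 in P3 DPCs, 109 in P9 DPCs, 30.3 in P3 DSCs and 38.0 in P9 DSCs. Wnt5a alone supplied 71.9%, 87.5%, 76.6% and 81.7% of these sums, and Wnt16 came second in each. Without Wnt5a the sums were 10.9, 13.6, 7.07 and 6.98. The summed FPKM of the 4 R-spondin genes was 4.84 and 8.83 in P3 and P9 DPCs and 13.9 and 29.5 in DSCs. Rspo2 made up 68.6% and 45.02% of the R-spondin sum in DPCs and 82.9% and 91.5% in DSCs. Thus the largest Wnt sum was found in P9 DPCs and the largest R-spondin sum in P9 DSCs. Of the tested genes, 96.6% had a lower FPKM than Wnt5a in P9 DPCs, and 85.7% had a lower FPKM than Rspo2 in P9 DSCs.

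**Figure D2:**
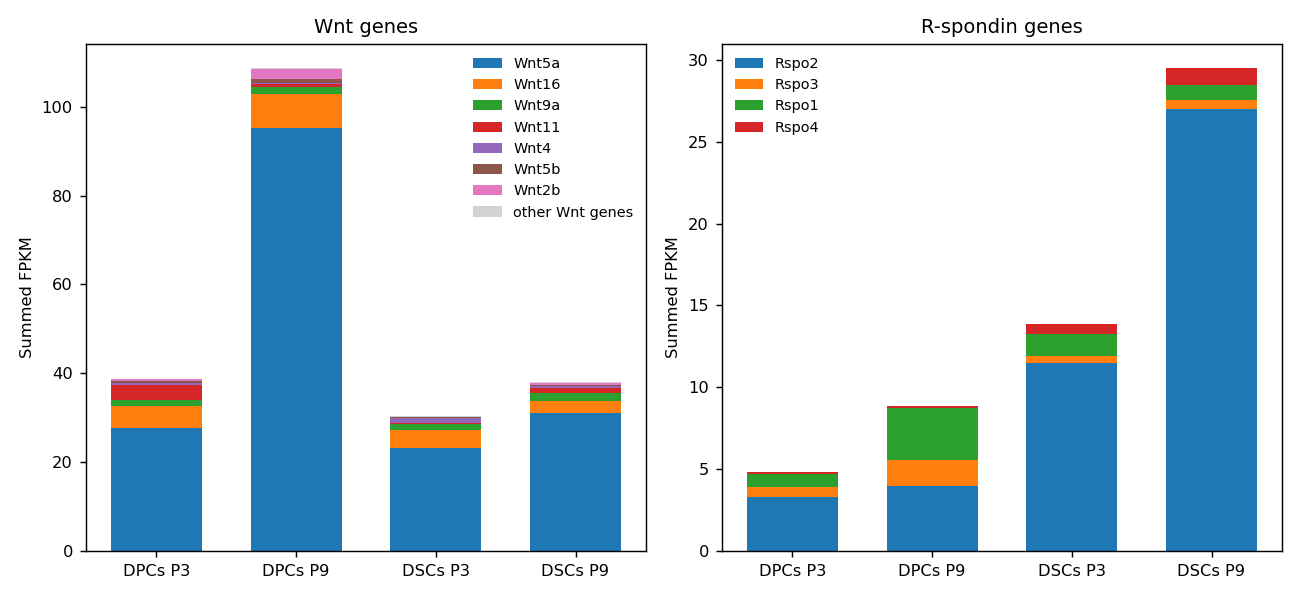
Summed FPKM (y axis) of the 19 Wnt genes (left) and the 4 R-spondin genes (right) in each library (x axis), with 1 colour for each gene and no error bars because each bar is 1 library. Wnt5a fills 71.9% to 87.5% of each Wnt bar, and the R-spondin bars are tallest in DSCs.

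The study asked how expression differs between P3 and P9 cells. The comparison took the 16734 genes whose raw counts averaged 10 or more over the libraries. Of the 10 ligand genes 8 passed, and Wnt2 and Wnt10b did not. A gene was called when it differed at least 4-fold, the threshold of the study. In DPCs, 1 of the 8 was called, and it was lower at P9, beside 9.94% of all tested genes called (5.58% higher and 4.36% lower). In DSCs 0 of the 8 were called, beside 3.82% of all tested genes (2.67% higher and 1.16% lower). At 2-fold, 5 of the 8 passed in DPCs and 3 in DSCs, beside 31.1% and 14.8% of all tested genes. None was called in both cell types, beside 1.27% of tested genes higher and 0.508% lower in both. The median log2 fold change of the 8 was 0.54 in DPCs and 0.46 in DSCs, against 0.03 and 0.00 over all tested genes, and 6 of the 8 were above 0 in each cell type. With so few genes these counts do not set the ligands apart from other genes.

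The called gene was Wnt4, 22.9-fold lower in P9 DPCs, a log2 ratio of -4.52 (95% interval -6.42 to -3.11). In DSCs it was 2.29-fold lower, at -1.20 (-1.57 to -0.84). The next largest differences in DPCs were those of Wnt5a, 3.22-fold higher at high passage (log2 ratio 1.69, 1.64 to 1.74), and Rspo3, 2.87-fold higher (1.52, 1.12 to 1.94). In DSCs the largest was that of Rspo2, 2.40-fold higher (1.26, 1.18 to 1.34), while in DPCs Rspo2 was 1.20-fold higher (0.27, 0.08 to 0.45). Wnt5a was 1.39-fold higher in P9 DSCs (0.48, 0.43 to 0.53). Wnt5b was 2.10-fold higher in DPCs and 2.13-fold higher in DSCs, the closest match between the cell types. Rspo3 in DSCs had an interval that included 0 (0.46, -0.02 to 0.95), and so did Wnt9a in DPCs (0.12, -0.18 to 0.41).

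Among the genes tested, 7.57% were at least as far up in DPCs as Wnt5a, and 0.622% at least as far down as Wnt4. In DSCs, 6.23% were at least as far up as Rspo2. These intervals exclude 0 easily in deep libraries. They did so for 7 of the 8 genes in DPCs, beside 77.6% of all tested genes, and for 7 of the 8 in DSCs, beside 66.7%.

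**Figure D3:**
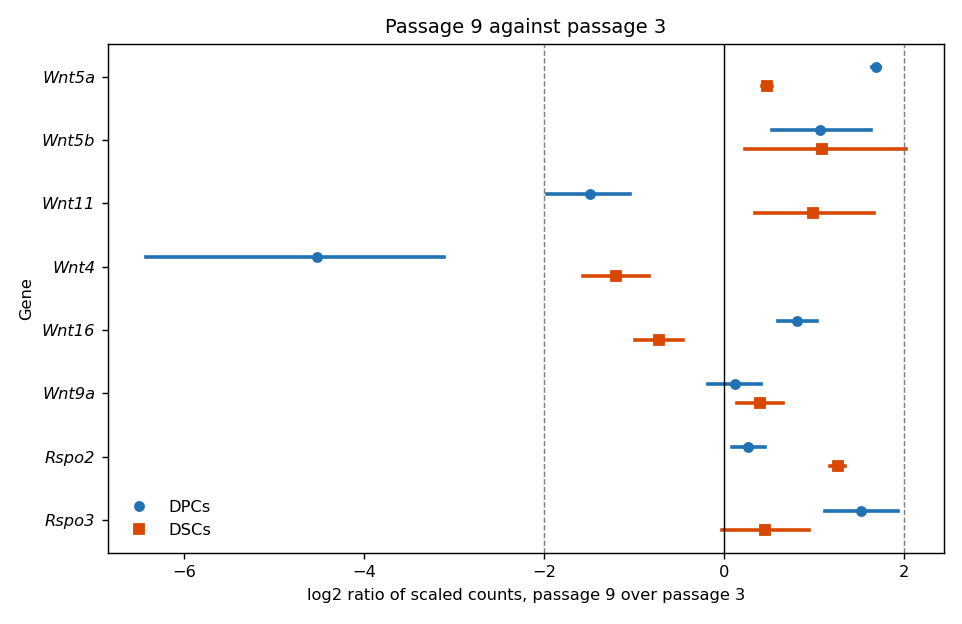
The log2 ratio of scaled counts at passage 9 over passage 3 (x axis) for the 8 tested genes (y axis), in DPCs (circles) and DSCs (squares). Lines are 95% Clopper-Pearson intervals for counting error only, and dashed lines mark 4-fold. Wnt4 in DPCs is the only point beyond a dashed line, and Wnt11 and Wnt16 lie on opposite sides of 0 in the 2 cell types.

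Wnt11 and Wnt16 differed with passage in opposite directions in the 2 cell types. Wnt11 was 2.82-fold lower at high passage in DPCs (log2 ratio -1.50, -1.97 to -1.04) and 1.98-fold higher in DSCs (0.99, 0.34 to 1.66). Wnt16 was 1.76-fold higher in DPCs (0.81, 0.60 to 1.03) and 1.65-fold lower in DSCs (-0.73, -0.995 to -0.46). The change in DPCs minus that in DSCs was -2.41 for Wnt11 and 1.53 for Wnt16, and 5.24% and 12.5% of the tested genes had a difference as large in size. For Wnt4 the difference was -2.82, a value reached by 3.60% of the tested genes, with both cell types lower at high passage. For Wnt5b it was 0.03. Of the 6 sheath markers, 5 were lower at high passage in DPCs and 3 in DSCs, with median log2 fold changes of -1.67 and 0.45. Myh11 (-4.05 in DPCs and 1.31 in DSCs) and Cnn1 (-1.69 and 0.99) went opposite ways. Itga8 was higher in both cell types, and Acta2, Tagln and Col11a1 were lower in both. A link between these markers and the Wnt11 values was not tested. With 1 culture sequenced in each group, cell type and culture cannot be told apart.

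DPCs were next compared with DSCs at each passage. At passage 3, 1 of the 8 genes was called, Wnt11, beside 4.30% of all tested genes called, with 1.52% higher in DPCs and 2.77% lower. Wnt11 was 5.65-fold higher in DPCs (log2 ratio 2.50, 1.92 to 3.12). Rspo2 was 3.67-fold lower in DPCs (-1.88, -2.03 to -1.72), which missed the threshold. Wnt4 was 1.93-fold lower in DPCs and Wnt5b 2.77-fold higher. For Wnt9a, Wnt16 and Rspo3 the interval included 0, and Wnt5a differed only 1.10-fold. The interval excluded 0 for 5 of the 8 genes, beside 59.5% of all tested genes.

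At passage 9, 2 of the 8 were called, both lower in DPCs, beside 6.42% of all tested genes called (3.91% lower and 2.50% higher). At 2-fold, 6 of the 8 passed at passage 9 and 3 at passage 3, beside 20.1% and 13.3% of all tested genes. The 2 genes called at 4-fold were Wnt4, 19.3-fold lower (log2 ratio -4.27, -6.17 to -2.87), and Rspo2, 7.30-fold lower (-2.87, -3.00 to -2.74). Wnt16 was 3.09-fold higher in DPCs (1.63, 1.39 to 1.87), Wnt5b 2.73-fold, Wnt5a 2.55-fold and Rspo3 2.51-fold. Wnt11 did not differ beyond counting error at passage 9, with a log2 ratio of 0.02 (-0.52 to 0.55). Wnt9a was 1.29-fold lower in DPCs (-0.37, -0.63 to -0.11). The median log2 fold change of the 8 genes was 0.12 at passage 3 and 0.66 at passage 9, against 0.00 and -0.01 over all tested genes. The interval excluded 0 for 7 of the 8, beside 70.7% of all tested genes. These comparisons share libraries with the passage comparisons and are other views of the same 4 values.

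**Figure D4:**
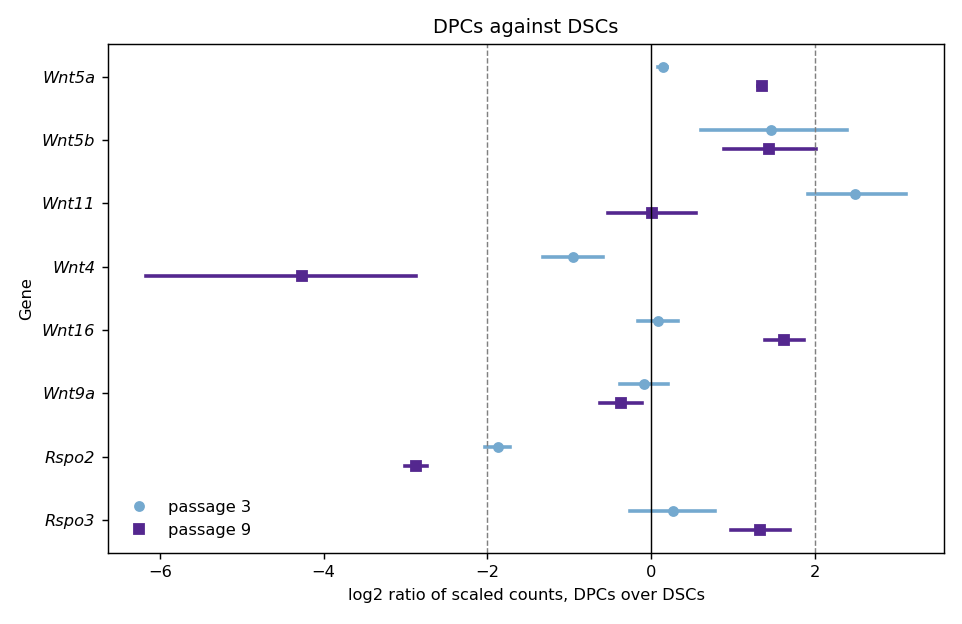
The log2 ratio of scaled counts in DPCs over DSCs (x axis) for the 8 tested genes (y axis), at passage 3 (circles) and passage 9 (squares). Lines are 95% Clopper-Pearson intervals for counting error only, and dashed lines mark 4-fold. Rspo2 lies left of 0 at both passages, Wnt11 lies beyond 4-fold at passage 3 only, and Wnt4 does so at passage 9.

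Among the 8 genes, Wnt11 was the one for which counts and FPKM differed most. The ratio of FPKM to CPM, which depends on the transcript length used for FPKM, was 0.752 in P3 DPCs, 0.528 in P9 DPCs, 0.297 in P3 DSCs and 0.665 in P9 DSCs. The highest was 2.54 times the lowest, and 0.857% of 15995 genes with more than 3 counts in every library had a ratio as large, against a median of 1.10. For the other 7 genes it lay between 1.08 and 1.32. On FPKM, Wnt11 was at 3.25, 0.808, 0.227 and 1.01 in the same order of libraries. Without a pseudocount, its log2 ratio of passage 9 over passage 3 was then -2.01 in DPCs and 2.15 in DSCs, past 4-fold in both and in opposite directions. That setting was added after the data were seen. With the planned pseudocounts the directions held, but neither cell type passed 4-fold. The values in DPCs and DSCs were -1.88 and 1.76 with a pseudocount of 0.1, and -1.23 and 0.71 with 1. RefSeq gives Wnt11 the 2 starts printed above, and which transcripts the reads came from was not tested.

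**Figure D5:**
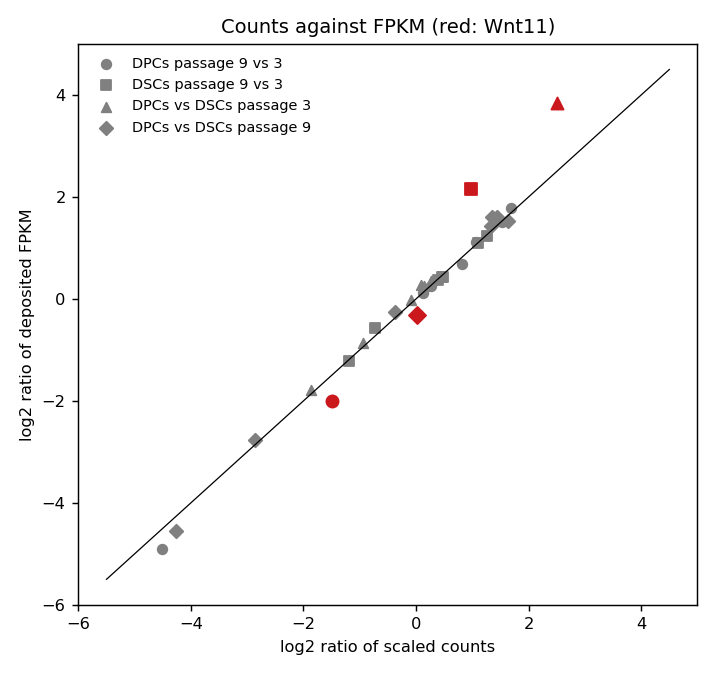
The log2 ratio of deposited FPKM (y axis) against the log2 ratio of scaled counts (x axis) for the 8 tested genes in the 4 comparisons, 1 marker shape for each comparison. The line marks equal values, and the red points are Wnt11. They lie furthest from it in the passage comparison of DSCs (0.99 by counts, 2.15 by FPKM) and in DPCs against DSCs at passage 3 (2.50 and 3.84). They lie off it by less in the passage comparison of DPCs (-1.50 and -2.01) and in DPCs against DSCs at passage 9 (0.02 and -0.32).

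The 8 Wnt genes above made up 97.7% to 99.5% of the summed Wnt FPKM, while Rspo2 and Rspo3 made up 63.2% of the R-spondin sum in P9 DPCs and 93.5% in P9 DSCs. The families hold 13 further genes. Wnt3, Wnt3a, Wnt6, Wnt7a, Wnt8a and Wnt9b had 0 counts in all 4 libraries, and Wnt1 had at most 2. Wnt2b, a β-catenin-dependent ligand, had 47 and 296 counts in P3 and P9 DPCs and 23 and 70 in DSCs, and it was called higher in P9 DPCs (log2 fold change 2.64). Wnt7b had 0 counts in 3 libraries and 47 in P9 DSCs, at least 13.04-fold higher than in P3 DSCs. Wnt10a had 9 counts and Wnt8b 6 in P9 DPCs, with 2 for Wnt8b in P9 DSCs and 0 for both genes elsewhere. Rspo1 had 57 and 219 counts in DPCs and 101 and 80 in DSCs, and Rspo4 12 and 12 in DPCs and 62 and 134 in DSCs. Rspo1 was thus the second R-spondin by FPKM in DPCs (0.838 and 3.12) and in P3 DSCs (1.33), above Rspo3. In P9 DSCs Rspo4 was second (1.05), and Rspo1 (0.869) was again above Rspo3 (0.595).

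Genes that produce, receive or oppose these ligands were read out by lists, whose calls stand beside 5.58% of all tested genes higher and 4.36% lower at P9 in DPCs, and 2.67% and 1.16% in DSCs. Of 6 genes for secretion and processing, 1 was called higher in DPCs and 0 in either direction in DSCs (all tested genes 5.58% and 3.82%), at medians of -0.12 and -0.03. It was Notum, a secreted enzyme that removes the lipid from Wnt, with 4 and 127 counts in DPCs and 0 in both DSC libraries. Trabd2b, a membrane protease that cleaves Wnt, had the lowest log2 fold change averaged over both cell types, with -0.26 in DPCs and -1.55 in DSCs. Within DPCs Porcn, which attaches the lipid to Wnt, had a lower value (-0.67) than Trabd2b, as did Wls (-0.35). Both are named after their values were seen. In DSCs Porcn was at -0.225 and Wls at 0.21. Wls, the carrier that takes Wnt to the cell surface, was abundant throughout at 99.6 to 134 FPKM.

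Of 14 tested Frizzled, LRP and related receptors, 1 was called higher in DPCs and 0 in DSCs, with medians of 0.78 and 0.18, beside 5.58% of all tested genes higher in DPCs and 3.82% called in DSCs. Fzd6 had the highest mean log2 fold change with passage, with 2.42 in DPCs and 1.05 in DSCs. Ror1, a receptor for Wnt5a, had the lowest, with -1.75 and -1.17. Of 4 tested R-spondin receptors and ligases, 0 were called in DPCs and 1 was called higher in DSCs (all tested genes 9.94% and 2.67%), with medians of -0.01 and 0.30. Lgr6 had the highest mean log2 fold change with passage, with 137 and 501 counts in DPCs and 888 and 2027 in DSCs. Lgr4 had the lowest, at 0.01 in DPCs and -0.64 in DSCs. The called gene was Lgr5, named after its values were seen, at 14 counts in P3 and 124 in P9 DSCs and at 212 and 64 in DPCs.

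Of 7 tested secreted inhibitors, 3 were called higher and 1 lower in DPCs, and 2 higher and 0 lower in DSCs, beside 5.58% and 4.36% of all tested genes in DPCs and 2.67% and 1.16% in DSCs. Sfrp1, which binds Wnt in the extracellular space, had the largest passage difference averaged over both cell types (log2 fold changes 6.76 for DPCs, 3.95 for DSCs), and the study named it from these same libraries. In DSCs alone Dkk2, an inhibitor that binds LRP receptors and is named here after its values were seen, differed more (4.48). Sostdc1, which also binds LRP receptors, had the lowest mean passage difference, at 61 counts in P3 DPCs, 0 in P9 DPCs and P3 DSCs and 2 in P9 DSCs, and was at least 19.8-fold lower in DPCs. Of 8 tested response genes, 1 was called higher and 3 lower in DPCs and 0 in DSCs, beside 5.58% and 4.36% of all tested genes in DPCs and 3.82% in DSCs. Axin2 had the highest mean log2 fold change with passage, at 5.26 in DPCs and 0.82 in DSCs. Lef1 had the lowest, at -7.02 and -1.11, with 508 and 2 counts in P3 and P9 DPCs and 101 and 55 in DSCs. Medians over the list were -1.23 in DPCs and -0.42 in DSCs. Axin2 was among the genes the study named from these libraries.

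For the 3 genes with the highest mean FPKM, the genes with the most similar pattern over the 4 libraries were found among 12192 genes, by the Euclidean distance of centred log2 CPM. Wnt5a was closest to Hist1h2br (distance 0.03) and Me1 (0.10). Rspo2 was closest to Nxph4 (0.24) and the gene listed as Gm7265 (0.28), and Wnt16 to Map3k1 (0.18) and Exoc3l4 (0.20). With 4 points shared by all genes of these libraries, such a likeness is a description of the pattern.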

How the data were processed

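RNA from 1 library in each of 4 groups was sequenced as paired-end reads after poly-T selection, according to the study's methods, while a different kit is named in the labels. Deposited by the authors were raw gene counts and, library by library, FPKM that the authors normalized by transcript length and depth. The submitters' processing notes list Bowtie 0.12.2 and builds mm8 and mm9. The counting program and its use of strand are not given in the sources used here. Of 51826 gene IDs, 51633 were found in GENCODE M21 (GRCm38), and 94.2% of these had the same position, so positions are read as GRCm38. Wnt5a, Wnt10b and Rspo2 were among the IDs whose position differed.

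Counts were scaled with TMM in edgeR 4.0.16 (R 4.3.3) over genes averaging 10 raw counts or more. CPM is the count relative to the scaled total. Calls rested on log2 CPM after adding a prior count of 2, and a printed log2 ratio with an interval has no prior. Ratio intervals were exact Clopper-Pearson intervals at 95% of 1 library's share of the counts of 2, and level intervals were exact Poisson intervals (scipy 1.17.1). Both cover counting error only. Even counts were in excess (1339 genes with 2 counts and 583 with 3 in P3 DPCs), as arises when both mates of a pair are counted, so intervals were also computed on halved counts. If both mates were counted, floors in CPM double and bounds on folds halve. The scaling and fold code was tested on simulated data.

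The genes and lists were chosen with earlier results of these data known. All 10 genes were named, along with the other genes of the families. From each further list the genes with the highest and the lowest mean log2 fold change with passage were named. For the 3 genes with the highest FPKM, the 2 genes nearest in pattern were named. The alternatives were other scalings (DESeq2 1.42.0 size factors, total counts, upper quartile), prior counts of 0.5 and 10, FPKM with pseudocounts of 0.1 and 1, minimum counts of 0 and 100 and a 2-fold threshold. FPKM without a pseudocount was added after the data were seen.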

Additional observations from a re-analysis of the deposited data

Results flagged for a closer look

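Wnt11 and Wnt16 stood out because each went 1 way with passage in DPCs and the other way in DSCs, with counting intervals on opposite sides of 0. The change in DPCs minus that in DSCs was -2.41 for Wnt11 and 1.53 for Wnt16 on the log2 scale. The difference was not tested, since each group had 1 library. On halved counts the intervals of Wnt11 were -2.20 to -0.87 in DPCs and 0.08 to 2.03 in DSCs, and those of Wnt16 were 0.51 to 1.12 and -1.11 to -0.34, so the signs held on that count too.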

How the results depend on the processing

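The log2 fold changes of the 8 tested genes in the 4 comparisons gave 32 values. Under DESeq2 size factors and upper-quartile scaling, 32 of 32 kept their sign and their side of the 4-fold threshold, with a largest shift of 0.02 (DESeq2). Under total counts 31 kept their sign, and the exception was Wnt9a in DPCs against DSCs at passage 3. With prior counts of 0.5 and 10 all 32 signs held, with largest shifts of 0.37 and 1.07. Largest shifts with FPKM were 1.59 at a pseudocount of 0.1, 3.39 at 1 and 1.42 without one. The log2 fold change of Wnt4 with passage in DPCs was -4.00 in the main setting and -2.935 with a prior count of 10. With FPKM it was -2.475 at a pseudocount of 0.1 and -0.61 at 1. With FPKM 31 signs held at either pseudocount and without one, the exception being Wnt11 in DPCs against DSCs at passage 9, which by counts was near 0.

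The number of called genes depended on the rule. With FPKM and a pseudocount of 1, which exceeds the FPKM of Wnt4 in 3 libraries, 0 genes were called in DPCs with passage, 0 in the cell type comparison at passage 3 and 1 in that at passage 9. A minimum mean count of 100, under which Wnt4 and Wnt11 were no longer tested, gave 0, 0 and 1 in the same order. Without a minimum, Wnt10b was also called at passage 3, which made 2. A 2-fold threshold called 5 genes with passage in DPCs, 3 in DSCs, 2 in both with the same direction, 3 between the cell types at passage 3 and 6 at passage 9. With halved counts the interval excluded 0 for 7 genes in DPCs, 6 in DSCs, 5 at passage 3 and 7 at passage 9, and the one lost was Wnt5b in DSCs. No paired analysis was possible because each group had 1 library and the labels give no replicate numbers. No library could be left out for the same reason. Depth limits Wnt2, Wnt10b and the 4 counts of Wnt4 in P9 DPCs.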
